A study of Homo sapiens with 17 samples.

Results

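S100A2 and TRIM29 are 2 genes of basal epithelial cells that were read on 17 Affymetrix arrays of human breast cell lines, 2 of the 17687 genes with a probe set paired to a gene symbol. Each has 1 probe set (S100A2, Entrez 6273; TRIM29, Entrez 23650). They were chosen by their measured signal, far higher in the control arrays titled MCF10 than in those of MDA-MB-231, so that difference is described here and not tested. Arrays titled MCF10, a non-tumorigenic mammary epithelial line, were 1 each of DZH_2 at IC20, DZH_2 at IC50, the solvent DMSO and untreated cells. MDA-MB-231, a mesenchymal, triple-negative breast cancer line, had 2 arrays each of Maraviroc at IC20, Maraviroc at IC50 and their solvent ethanol. It also had 2 arrays each of DZH_2 at IC20, DZH_2 at IC50 and their solvent DMSO, and 1 array of untreated cells. Cells were seeded for 24 h and given compound or solvent for 48 h. IC20 and IC50 are concentrations that inhibit by 20% and 50%. DZH_2 is known here by its code name alone.

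S100A2 codes for a small calcium-binding protein of the S100 family, found in the basal layer of stratified and glandular epithelia and known as a target of the transcription factors p53 and p63. Its gene lies in a cluster of S100 genes on chromosome 1. TRIM29, also called ATDC, is a member of the tripartite motif family that lacks the RING domain. It is expressed in basal cells and squamous tumours, where it binds proteins of the DNA damage response.

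The sequence in front of S100A2 is shown because it was the member with the largest difference under DZH_2, and that of its neighbour S100A3 because it had the next largest in the family. Each line gives the 250 bases before a RefSeq start (GRCh38.p14), 5′ to 3′ on the minus strand, chr1:153565845-153566094 for S100A2 and chr1:153549259-153549508 for S100A3. Capitals mark the AP-1 motif TGANTCA and, in S100A3, the GC box GGGCGG, both searched on both strands.
S100A2: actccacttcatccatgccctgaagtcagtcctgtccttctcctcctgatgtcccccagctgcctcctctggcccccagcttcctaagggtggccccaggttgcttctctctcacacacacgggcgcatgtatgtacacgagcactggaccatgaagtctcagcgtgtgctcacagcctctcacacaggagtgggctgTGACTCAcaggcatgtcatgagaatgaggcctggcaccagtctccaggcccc
S100A3: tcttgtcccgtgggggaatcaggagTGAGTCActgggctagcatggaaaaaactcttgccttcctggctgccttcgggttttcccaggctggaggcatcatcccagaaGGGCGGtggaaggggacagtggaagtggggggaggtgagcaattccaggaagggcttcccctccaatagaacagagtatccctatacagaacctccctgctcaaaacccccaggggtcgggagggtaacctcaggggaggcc
The AP-1 letters lie 52 to 46 bases before the start of S100A2 and 225 to 219 bases before that of S100A3. They occur in 6.57% of the 35116 RefSeq start regions of this length, and GGGCGG in 42.6%. Neither the TATA box letters TATAAA (10.7% of start regions) nor a p53 family half-site (5.57%) is in these windows. A second S100A2 start region had none of the motifs. Some of the genes named below as lower with DZH_2 in MCF10 were also searched. SERPINB5 had the AP-1 letters, and S100A4, S100A13, S100A16 and KRT5 did not. The GC box was in SERPINB5, S100A13 and S100A16, and the TATA box letters in S100A4 and S100A13. A p53 family half-site was in KRT5 and S100A16. ITGB4 had no start region to search, and the other genes named below as lower, such as S100A10, were not searched. The motifs were chosen with the sequences in view, and a match is a description of letters.

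The deposited values are log2 signals, and a level is called near background below where it does not exceed the upper quartile of that array's 612 negative controls. That quartile lay at 6.05 to 6.60 on the 4 MCF10 arrays and at 5.64 to 6.46 on the 13 MDA-MB-231 arrays. The interquartile range over genes was 3.34 to 3.62 on the MCF10 arrays and 4.05 to 4.65 on the MDA-MB-231 arrays. The arrays titled MCF10 carry MDA-MB-231 as their stated cell line, and grouping went by title. Their markers were mixed. Of 15 other basal markers 12 were above background in the MCF10 controls and 5 in the MDA-MB-231 controls, with mean log2 levels of 8.08 to 8.17 and 6.60 to 6.75. The basal keratin gene KRT5 averaged 9.30 in MCF10 and 4.51 in MDA-MB-231 controls, and the serpin gene SERPINB5 10.35 and 3.33. Of the 15, 8 were at least 1 higher in MCF10 and 2 at least 1 lower, beside 12.7% and 24.0% of all genes. The 2 lower ones were ITGA6 (8.92 and 12.9) and EGFR (9.53 and 11.8). Of 22 luminal and general epithelial markers 7 were above background in the MCF10 controls and 10 in the MDA-MB-231 controls. Their mean log2 levels were 6.91 to 6.96 and 6.55 to 6.69. Of the 22, 4 were at least 1 higher in MCF10 and 5 at least 1 lower, beside 12.7% and 24.0% of all genes. Among the 22, the keratin genes KRT8 (14.18 and 13.61) and KRT18 (12.80 and 13.21) were high in both lines. Keratin gene KRT7 averaged 17.2 in the MCF10 control arrays and 8.43 in those of MDA-MB-231, but the cadherin gene CDH1 (4.07 and 3.71), EPCAM (5.24 and 6.77) and the basal keratin gene KRT14 (4.76 and 3.79) were near background in MCF10. The matrix genes MMP2 (13.8 and 4.72) and FBLN1 (13.6 and 4.86) were high there. Of 19 mesenchymal markers 9 were at least 1 higher in MCF10 and 8 at least 1 lower, beside 12.7% and 24.0% of all genes. Their mean log2 levels were 10.85 to 10.94 in the MCF10 controls and 9.47 to 9.6 in the MDA-MB-231 controls. Among the higher were FN1 (17.64 and 10.03) and SNAI2 (12.66 and 7.62), and among the lower ZEB1 (7.23 and 12.38) and QKI (11.2 and 13.87). Of 13 fibroblast and matrix markers 9 were above background in the MCF10 controls and 4 in the MDA-MB-231 controls, with summed log2 levels of 107.5 to 108.7 and 76.3 to 78.2.

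S100A2 stood at 14.78 in DMSO and 14.91 in untreated cells on the MCF10 arrays, against 6.75 and 6.54 in DMSO and 6.75 in untreated MDA-MB-231 cells. In untreated MCF10 cells S100A2 was at percentile 99.1 of the genes on the array. TRIM29 stood at 8.18 in DMSO and 8.75 in untreated MCF10 cells, against 4.11 and 3.89 in DMSO and 4.25 in untreated MDA-MB-231 cells. The lines did not overlap for either gene. The differences, MCF10 minus MDA-MB-231, were 8.17 for S100A2 and 4.38 for TRIM29, rank 16 and rank 112 of 17687 genes. TRIM29 was under the median of the negative controls on every MDA-MB-231 array, so its difference and rank are limited by the floor and the true difference may be larger. In these arrays 12.7% of genes were higher by at least 1 in MCF10 and 24.0% lower by at least 1, and nothing is read from this, as the contrast chose the members.

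**Figure D1:**
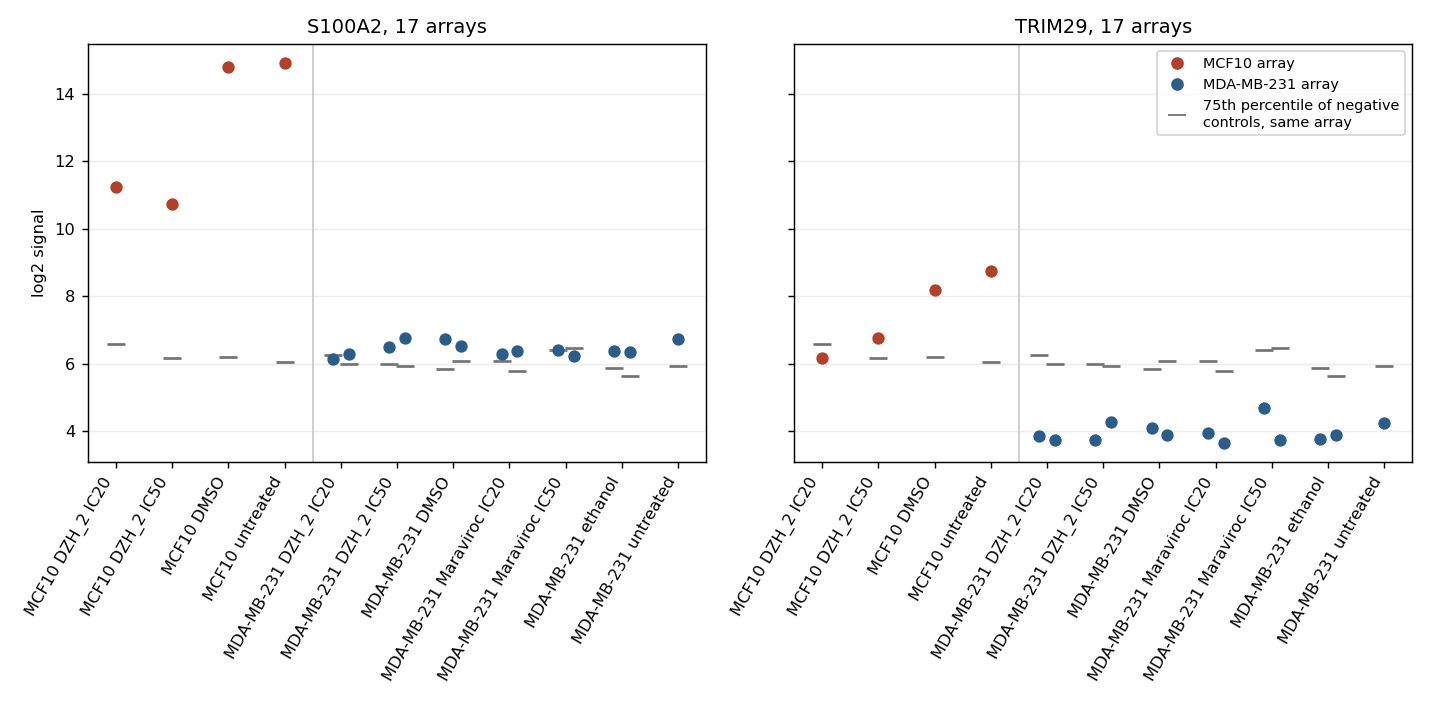
Log2 signal of S100A2 (left) and TRIM29 (right) on each of the 17 arrays, by line and treatment; each point is 1 array, and the grey dash is the upper quartile of that array's negative controls. S100A2 lies between 10.74 and 14.91 on the MCF10 arrays and between 6.15 and 6.76 on the MDA-MB-231 arrays, and TRIM29 is under the dash on all 13 MDA-MB-231 arrays.

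In the cells titled MCF10 both genes were lower with DZH_2. S100A2 stood at 11.25 at IC20 and 10.74 at IC50, against 14.78 in DMSO and 14.91 in untreated cells. Both treated arrays lay far below both controls, by a log2 difference from DMSO of -3.54 at IC20 (11.6-fold lower) and -4.04 at IC50 (16.4-fold lower). With quantile normalization the differences were -2.82 at IC20 and -3.55 at IC50. Within the array S100A2 was at percentile 93.0 of genes at IC20 and 89.4 at IC50, against 99.1 in untreated cells. TRIM29 stood at 6.18 at IC20 and 6.76 at IC50, against 8.18 in DMSO and 8.75 in untreated cells. Its differences from DMSO were -2.0 at IC20 and -1.42 at IC50. The IC20 value was near background, where the quartile of the negative controls was 6.60, so the size at that dose depends on the floor. S100A2 was lower at IC50 than at IC20 and TRIM29 the other way round, and both steps between doses were under 1.

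There was 1 array per group in MCF10, and the DMSO array also entered the contrast that chose the members, so these differences have no replicate check and no test. The untreated and DMSO arrays differed by 0.13 for S100A2 and by 0.58 for TRIM29, beside a median absolute difference of 0.33 and a 95th percentile of 1.17 over all genes. The smaller of the 2 dose differences ranked S100A2 as number 8 and TRIM29 as number 330 among the lowest of 17687 genes. Of all genes 4.88% were lower by at least 1 at both doses and 4.52% higher, while 12.8% were lower at IC20 and 8.83% at IC50. In bulk RNA, fewer cells of a type and less RNA per cell cannot be told apart. With DZH_2, S100A2 was 5.02 higher at IC20 and 4.11 higher at IC50 in MCF10 than in MDA-MB-231. TRIM29 was at 6.76 in MCF10 at IC50, against a mean of 4.01 in MDA-MB-231, which was near background. At IC20 it was near background in both lines, and no difference is given.

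Most other basal genes were not lower by at least 1 at both DZH_2 doses in MCF10. Of 15 other basal epithelial markers measured, 3 were lower by at least 1 at both doses, beside 4.88% of all genes, and 1 was higher. Above background in DMSO were 10 of the 15, including these 3. The same DMSO array enters the differences, so no share of the 10 is set against other genes. The median of the 15 was 0.01 at IC20 and -0.30 at IC50, against 0.02 and 0.01 over all genes. SERPINB5, a serpin gene of mammary myoepithelial cells, differed from DMSO by -3.83 at IC20, where it was near background so that the size depends on the floor, and by -2.64 at IC50. KRT5, the basal keratin gene, differed by -3.12 and -3.23, and at both doses ended near background. ITGB4, the integrin subunit of hemidesmosomes, differed by -1.32 and -2.24. MME, the gene of the myoepithelial surface peptidase CD10, stood at 8.48 at IC20 and 10.07 at IC50, against 7.48 in DMSO and 8.67 in untreated cells, so its IC20 array lay between the controls. Integrin gene ITGA6, which pairs with ITGB4, differed from DMSO by 1.22 at IC20 and -0.47 at IC50. SFN, the gene of stratifin, differed by 0.62 and 1.59, the receptor gene EGFR by 0.43 and 0.51 and the annexin gene ANXA8 by 0.37 and 0.55. Of the 14 measured genes of the list of TP63 targets 2 were lower at both doses (KRT5 and ITGB4) and 1 was higher (DST). TP63 itself was not analysed here.

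In the S100 family 5 of the 19 other members were lower by at least 1 at both doses and none was higher, beside 4.88% of all genes lower. Above background in DMSO were 11 of the 19, including these 5, which stood at 12.58 to 16.83 there. The same DMSO array enters the differences, so no share of the 11 is set against other genes. The count of lower members was 4 against the untreated array and 3 with quantile normalization. Over all genes the counts were 850 and 961, against 864 with the deposited values and the DMSO array. The medians of the 19 were -0.35 at IC20 and -0.39 at IC50. S100A3, the next gene to S100A2 on the chromosome, stood at 8.79 at IC20 and 9.96 at IC50, against 12.58 in DMSO and 13.06 in untreated MCF10 cells. Its differences from DMSO were -3.79 and -2.62. S100A13 differed by -2.77 and -1.92, S100A10 by -2.26 and -1.40, S100A16 by -1.94 and -1.41, and S100A4, a gene of motile mesenchymal cells, by -1.13 and -1.55. S100A6, which lies in the same cluster, differed by only -0.14 and -0.27 and stayed at 16.70 and 16.56, against 16.83 in DMSO. The size of the difference thus varied widely within the cluster. In the TRIM family 1 of 63 other members was lower at both doses and 2 were higher. On chromosome 11 the nearest measured neighbours of TRIM29 were NECTIN1 (-1.24 at IC20 and -1.49 at IC50) and OAF (-1.23 and 0.07).

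**Figure D2:**
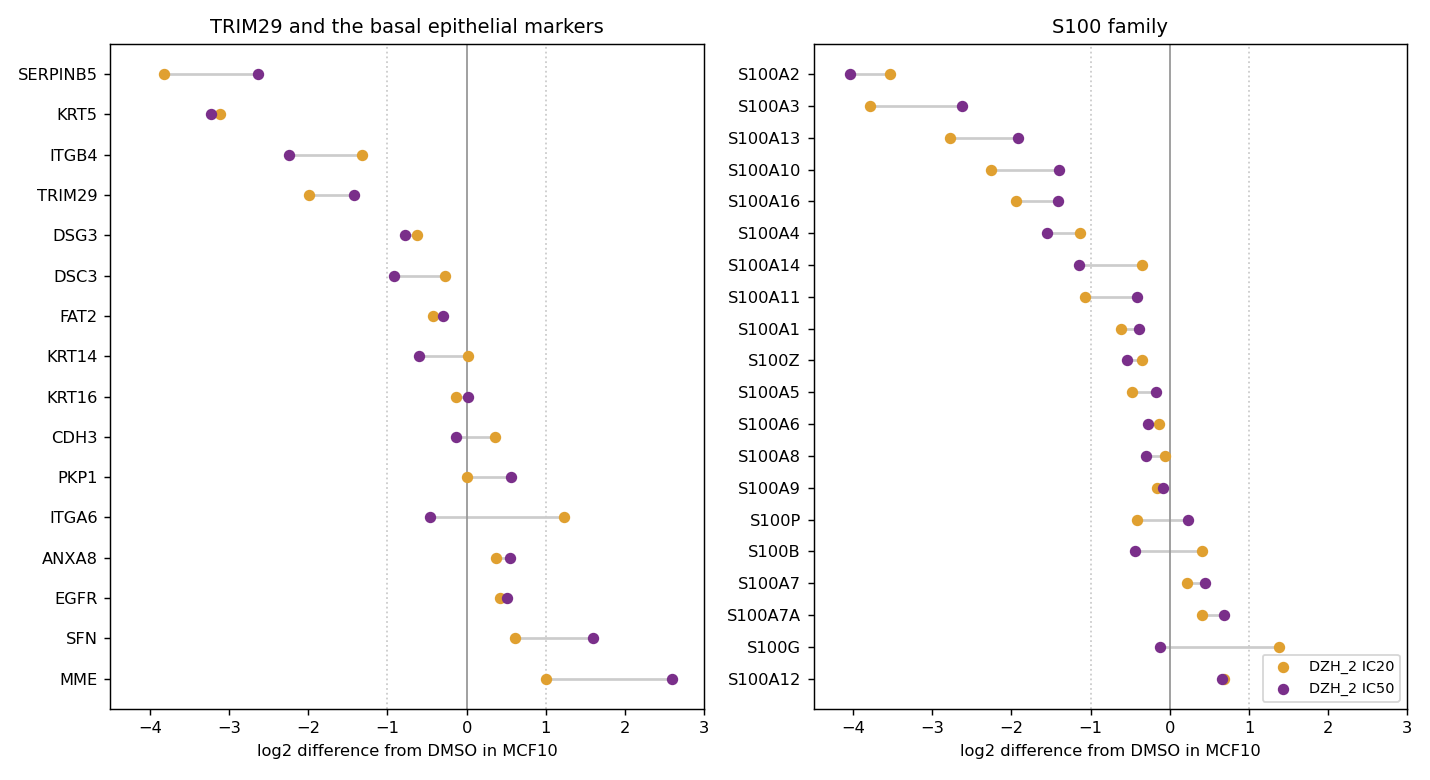
Log2 difference from DMSO in MCF10 at DZH_2 IC20 (orange) and IC50 (purple) for TRIM29 with the 15 other basal markers (left) and for the S100 family (right); each point is 1 array minus 1 DMSO array, and dotted lines mark -1 and 1. S100A2 reaches -4.04 at IC50, with S100A3 (-2.62) next to it, and MME lies at 2.59 on the other side.

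Many genes that were far higher in MCF10 than in MDA-MB-231 were also lower with DZH_2 in MCF10. To share no array, the line difference was taken here from the untreated arrays, where it was 8.16 for S100A2 and 4.50 for TRIM29, and the DZH_2 difference from DMSO. Of 130 genes that were higher by at least 4 in untreated MCF10 cells, 62 were lower by at least 1 at both doses and 3 higher. Of 299 genes that were lower by at least 4 in untreated MCF10 cells, 19 were lower by at least 1 at both doses and 23 higher. Genes that are high in MCF10 have room to fall, which a gene near background has not. These counts are therefore a description and are not set against each other or against other genes.

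The 5 genes whose levels over the 17 arrays were most like S100A2, by the root mean square difference after each gene was centred on its mean, were ACKR1 (0.41), TBX3 (0.45), TNS4 (0.47), PTK2B (0.49) and HOXC13 (0.51). ACKR1, a decoy receptor gene for chemokines, stood at 8.62 at IC20 and 8.17 at IC50, against 11.56 in DMSO, and at 3.61 to 4.13 in MDA-MB-231. TNS4, a tensin gene of epithelial adhesions, stood at 10.49 and 10.32, against 13.88 in DMSO. Those most like TRIM29 were TFCP2L1 (0.30), the chemokine gene CXCL1 (0.36), CRIP2 (0.39), NF2 (0.41) and BGN (0.42). The distance between S100A2 and TRIM29 was 1.37. All 17 arrays entered these distances, so the genes also share the gap between the lines.

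In MDA-MB-231 neither compound gave a detected change of S100A2 or TRIM29. S100A2 ran from 6.15 to 6.76 over the 13 arrays, with a median of 6.39, above background on 10 of them. TRIM29 ran from 3.66 to 4.69 with a median of 3.89, near background on all 13 and under the median of the negative controls on each, so a fall of TRIM29 could not have been seen there. The SD over the 13 arrays was 0.20 for S100A2, smaller than in nearly all genes, as 6.06% of genes had a smaller one. The 12 of these arrays that have a replicate were fitted with limma. Each log2 difference is given with its standard error, adjusted p over all 17687 genes and 95% interval. The standard error pools the spread over the 6 groups of 2 arrays, and limma draws that spread toward the spread of other genes. Before that step the pooled SD between replicates was 0.12 for S100A2 and 0.33 for TRIM29.

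With Maraviroc at IC50, S100A2 stood at 6.42 and 6.24, against 6.39 and 6.35 in ethanol, and the arrays overlapped. The difference was -0.04 ± 0.24 (limma, adjusted p = 0.93), with an interval from -0.56 to 0.48. Under the same treatment 27.0% of all genes were called, 12% higher and 15.0% lower. TRIM29 stood at 4.69 and 3.74, against 3.79 and 3.89 in ethanol, a difference of 0.37 ± 0.32 (limma, adjusted p = 0.44; interval -0.32 to 1.07). The higher TRIM29 value came from replicate 1 alone, and without that array the difference was -0.10. At Maraviroc IC20, S100A2 stood at 6.29 and 6.39 (difference -0.04 ± 0.24) and TRIM29 at 3.95 and 3.66 (-0.03 ± 0.32), with an adjusted p of 1.00 for both by limma. No gene was called at that dose by limma (0% of genes, with 309 at an unadjusted p under 0.05).

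With DZH_2 at IC50, S100A2 stood at 6.50 and 6.76, against 6.75 and 6.54 in DMSO, a difference of -0.01 ± 0.24 (limma, adjusted p = 0.99; interval -0.53 to 0.50). TRIM29 stood at 3.75 and 4.27, against 4.11 and 3.89 in DMSO, a difference of 0.01 ± 0.32 (limma, adjusted p = 0.99). At IC20 both S100A2 arrays, at 6.15 and 6.29, lay below both DMSO arrays, but the difference of -0.42 ± 0.24 did not pass (limma, adjusted p = 0.55; interval -0.94 to 0.10). TRIM29 stood at 3.86 and 3.75 at IC20 (-0.19 ± 0.32, limma, adjusted p = 0.90). The calls over all genes were 1.57% at IC50 and 0.871% at IC20. S100A2 lay close to the negative controls in MDA-MB-231, so a fall of the size seen in MCF10 could not have been measured there. The difference between the lines in the response was not tested.

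The effects of the compounds over their solvents were compared at matched inhibition, which showed no detectable difference in either gene. DZH_2 minus Maraviroc was 0.02 ± 0.34 for S100A2 at IC50 (limma, adjusted p = 0.98; interval -0.71 to 0.76) and -0.38 ± 0.34 at IC20 (limma, adjusted p = 0.89; interval -1.12 to 0.35). For TRIM29 it was -0.36 ± 0.45 at IC50 and -0.16 ± 0.45 at IC20 (limma, adjusted p = 0.76 and 0.98). The percent of genes called was 6.17% at IC50 (4.02% higher and 2.15% lower with DZH_2) and 0% at IC20, with 1273 at an unadjusted p under 0.05 at IC20. Ethanol minus DMSO was -0.27 ± 0.24 for S100A2 and -0.16 ± 0.32 for TRIM29 (limma, adjusted p = 0.86 and 0.96), where 0% of genes were called and 1352 had an unadjusted p under 0.05.

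**Figure D3:**
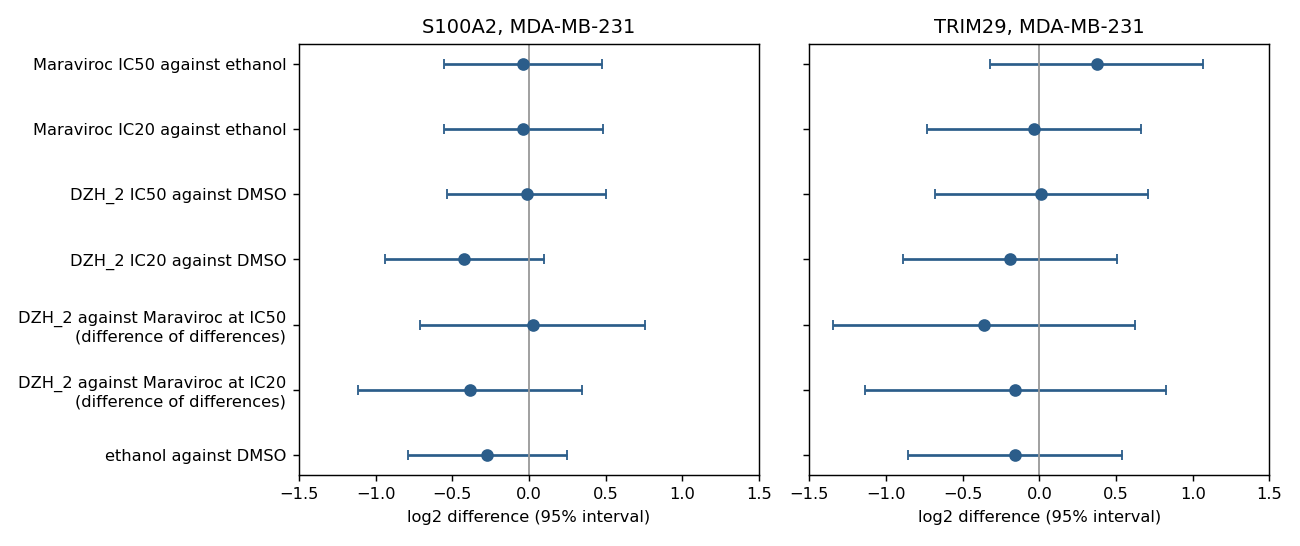
Log2 differences of S100A2 (left) and TRIM29 (right) in MDA-MB-231 with their 95% intervals from limma, in 7 comparisons; the 2 compound comparisons are differences of differences from solvent. Each interval includes 0, and the widest are those of TRIM29 between the compounds.

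With Maraviroc at IC50, where 12% of all genes rose and 15.0% fell, some other basal and S100 genes of MDA-MB-231 changed. Of 15 other basal markers 4 fell and none rose: ITGA6 (-4.20 ± 0.33), ITGB4 (-3.31 ± 0.49), SFN (-3.21 ± 0.33), and EGFR (-2.02 ± 0.45) (limma, adjusted p between 4.1e-06 and 0.0053). The list's median was 0.03, against 0.11 over all genes. ITGA6 also fell with DZH_2, at -1.68 ± 0.33 at IC50 and -1.74 ± 0.33 at IC20 (limma, adjusted p = 0.032 and 0.034), the single basal marker called there. In the S100 family 5 of 19 other members fell and 2 rose with Maraviroc at IC50, with a median of 0.27. S100A10, the partner of annexin A2, differed by -2.68, S100A13 by -1.74, S100A11 by -1.38 and S100A16 by -1.23 (limma, adjusted p between 4.0e-05 and 0.012). None of these members was among the 1.57% of all genes called with DZH_2 at IC50, or the 0.871% at IC20, in MDA-MB-231. Of the 63 other TRIM genes 9 rose and 7 fell with Maraviroc at IC50, shares near those of all genes, including TRIM24, a nuclear receptor cofactor, at -3.46 ± 0.32 (limma, adjusted p = 1.3e-05).

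Some genes tied to S100A2 and TRIM29 by regulation or binding were among the 27.0% of all genes called with Maraviroc at IC50 (12% higher and 15.0% lower). Among 18 measured genes of the p53 list 6 rose and 3 fell, with CDKN1A, the gene of p21, at 4.89 ± 0.57 and GDF15 at 4.12 ± 0.66 (limma, adjusted p = 6.3e-05 and 5.9e-04). With DZH_2 in MCF10, 3 of these 18 were higher by at least 1 at both doses (RRM2B, GDF15 and GADD45A) and TP53I3 was lower. Over all genes the shares were 4.52% higher and 4.88% lower. RRM2B was also 2.15 higher in untreated than in DMSO cells. Among 9 measured genes of TRIM29 partners 2 rose and 3 fell with Maraviroc at IC50, including H2AX, the damage-marking histone gene, at -3.19 ± 0.51 and ATM at -2.44 ± 0.52 (limma, adjusted p = 6.0e-04 and 0.0037). With DZH_2 in MCF10, 1 of these 9 was lower by at least 1 at both doses and 1 was higher. H2AX differed from DMSO by -1.25 at IC20 and -1.51 at IC50, and TP53BP1 by 1.01 and 1.41. The p53 and TRIM29 partner lists had no member called with DZH_2 in MDA-MB-231. There 1.57% of all genes were called at IC50 and 0.871% at IC20, so nothing is read from the absence in such short lists.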

How the data were processed

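The authors deposited log2 signals of 24351 probe sets for 17 arrays of total RNA, prepared per the labels' protocols with Trizol and the GeneChip WT PLUS kit. Their steps of summarisation and normalization are unknown here, and values were used as deposited. Precision is limited by the number of arrays. Titles gave the groups. Probe sets with 1 gene symbol (17709) were reduced to 17687 genes by the highest mean over the arrays; 2903 were controls and 3739 had no gene listed.

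A single limma 3.58.1 fit (R 4.3.3) held the 12 MDA-MB-231 arrays that have a replicate, in 6 groups (6 residual degrees of freedom, 2-sided, Benjamini-Hochberg over all genes, threshold 0.05). The labels do not say whether replicates were separate cultures, so p-values reflect only the variation among these arrays, which may be technical. Tested on simulated data (17687 genes, the contrast of DZH_2 IC50 with DMSO), the fit recovered 16.8% of planted log2 changes of 1 and 77% of those of 2. Groups of 1 array, and the contrast that chose the members, were described without a test; a log2 difference of 1 counted. Members and lists were chosen with earlier results of these data known. Named genes were the members, per list up to 4 with the smallest p, up to 4 each way between the lines and up to 2 each way in MCF10, and the 5 most like each member. The neighbours and genes that complete a small count were chosen after their values were seen. Sequences are from RefSeq. Same-numbered replicates deviated together at correlations of -0.08 to 0.25, so the numbers were not taken as pairs. Alternatives were other normalizations, a filter, other sets of arrays, array weights, a replicate block and leaving out each replicate. Figures used matplotlib 3.10.9.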

Additional observations from a re-analysis of the deposited data

How the results depend on the processing

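In MDA-MB-231 the 159 alternative values of S100A2 and TRIM29 gave 0 calls (smallest adjusted p 0.056 by limma), and 18 of them changed sign, in 5 cases by another normalization and otherwise by leaving out a replicate. The filter on low signal removed TRIM29. S100A2 with Maraviroc IC50 turned to 0.13 with median centring, and S100A2 with DZH_2 IC50 to 0.031. TRIM29 with DZH_2 IC50 turned to -0.11 with quantile normalization. The difference between the compounds at IC50 in S100A2 turned to -0.016 with quantile normalization and -0.10 with median centring. Leaving out 1 replicate gave S100A2 from -0.13 to 0.051 and TRIM29 from -0.10 to 0.85 with Maraviroc IC50, and -0.087 to 0.015 and -0.18 to 0.11 with Maraviroc IC20. With DZH_2 IC50 the ranges were -0.15 to 0.12 and -0.24 to 0.27. Between the compounds at IC50 they were -0.11 to 0.16 and -0.84 to 0.12. The replicate block changed no call of a member (S100A2 with DZH_2 IC20 kept -0.42, adjusted p = 0.56 by limma).

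Counts of called genes moved far more. With the groups compared alone they were 2399 for Maraviroc IC50, 1 for Maraviroc IC20, 817 and 244 for DZH_2 IC50 and IC20, and 707 between the compounds at IC50, against 4778, 0, 277, 154 and 1091. Without the Maraviroc IC50 arrays DZH_2 gave 837 and 495 and the compounds at IC20 gave 4; array weights gave 942, 488 and 3; the replicate block gave 2 between the compounds at IC20. Leaving out 1 replicate gave 2995 to 5080, 2 to 22 and 2 to 131 for Maraviroc IC50, DZH_2 IC50 and DZH_2 IC20, and 448 to 1981 and 0 to 1 between the compounds at IC50 and IC20.

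In MCF10 the direction of both genes held in every alternative run. Quantile normalization gave S100A2 -3.55 at IC50 and -2.82 at IC20 and TRIM29 -2.60 at IC20. It left 3 of 19 S100 genes lower at both doses, beside 961 of all genes. The line difference became 8.59 for S100A2 with median centring, and 4.81 for TRIM29 with median centring and 4.78 with quantile normalization. The cause of these shifts was not tested. The counts in MCF10 against the untreated array, and with quantile normalization, were chosen after seeing the data.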
